A study of Mus musculus with 16 samples.

Results

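The nuclear-encoded oxidative phosphorylation genes are the genes on nuclear chromosomes for subunits of the respiratory chain and the ATP synthase. They were taken by gene symbol (Nduf, Sdh, Uqcr, Cox4 to Cox8 and Atp5 names, without assembly factors named Ndufaf and without pseudogenes), which gave 83 of the 19439 genes listed in ear skin. By symbol, 37 belong to complex I, 4 to complex II, 8 to complex III, 17 to complex IV and 17 to complex V. All 83 matched the RefSeq gene table of mouse build GRCm38.p6 by Entrez number. Membership was set by symbol alone, but the set was chosen with earlier results of these data known.

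The RNA came from ear skin lesions of 16 BALB/c mice aged 8 weeks, all treated with imiquimod (IMQ), a drug that gives psoriasis-like inflammation when put on mouse skin. Into the ear, mice received either 10 µl of 10 mM lysophosphatidylcholine (LPC), a phospholipid with a single fatty acid chain, or 10 µl of saline as vehicle. The 4 groups were LPC day 7, vehicle day 7, LPC day 4 and vehicle day 4, with 4 mice and 4 libraries each. Injections were planned daily over 6 days, so the mice killed on day 4 were taken before that course ended, and no group without IMQ was compared here. Basal keratinocyte markers such as Krt5 and Krt14 were abundant in every library, with a summed FPKM between 6110 and 15200. Whole skin was sequenced, and in such bulk RNA fewer cells of a type and less RNA per cell cannot be told apart.

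Oxidative phosphorylation passes electrons from NADH (complex I) and succinate (complex II) through complex III to oxygen at complex IV, and complex V makes ATP from the proton gradient this builds. Most subunits are used by every cell with mitochondria, and their transcripts are abundant where demand is high, as in muscle and brown fat. A few subunits have paralogs found mainly in certain tissues or conditions. Cox6a2, Cox7a1 and Cox8b are known as the heart and skeletal muscle forms of complex IV subunits. Cox4i2 is a form known from lung, vessel wall cells and low oxygen. Ndufa4l2 is a paralog of Ndufa4 induced by hypoxia-inducible factors (HIF).

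Expected counts per library summed to between 18704197 and 20131513, so depth was nearly even. Levels are given as FPKM, the authors' fragments per kilobase scaled to the mapped reads of the library, and can be compared between genes. Fold changes come from the counts, scaled between libraries by TMM in edgeR, and are LPC over vehicle or day 7 over day 4 on the log2 scale with their standard error (SE). A gene was called at a Benjamini-Hochberg adjusted p below 0.05 over all 15782 genes tested, by edgeR unless another method is named. Among the members 82 were tested and were listed in all 16 libraries. The remaining one, the testis-type Cox7b2, had 1 count in LPC day 7 mouse 2, 1 count in vehicle day 4 mouse 2 and none in the other libraries, where a count of 0 still allows up to 3.

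Libraries of the same group did not carry the same amount of muscle RNA. A muscle score, the mean log2 CPM (counts scaled to a common library total) of 20 skeletal muscle marker genes such as Acta1 and Ckm, was 9.38 and 9.66 in LPC day 7 mice 2 and 4, against 5.38 and 3.92 in mice 1 and 3 of that group. Vehicle day 4 mouse 3 had a score of 6.97, while mice 1, 2 and 4 of its group had 10.52, 10.07 and 10.3. All 20 marker genes were above 0 in every library, and their summed FPKM ran from 237 to 11800 in LPC day 7, from 1670 to 7090 in vehicle day 7, from 217 to 2090 in LPC day 4 and from 2680 to 25000 in vehicle day 4. The score was highest in vehicle day 4 and lowest in LPC day 4, so it moved with the treatment at that day.

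Most members were strongly and evenly expressed. Mean FPKM over the 16 libraries was at least 100 for 60 of the 83 members and below 10 for 4. The most abundant were Ndufa4 (661 FPKM), now regarded as a complex IV subunit, Atp5b (645 FPKM), the catalytic beta subunit of the ATP synthase, and Cox4i1 (561 FPKM), the general form of subunit 4 of complex IV. The least abundant of those tested were the testis-type Cox6b2 (2.14 FPKM), the ATP synthase factor Atp5s (3.2 FPKM) and Cox4i2 (5.98 FPKM). The highest and the lowest library differed by less than 2-fold in 44 members and by less than 3-fold in 74. The muscle forms stood apart, with 180-fold for Cox6a2, 145-fold for Cox8b and 133-fold for Cox7a1.

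The highest of the 16 libraries was a vehicle day 4 library in 77 members, and vehicle day 4 mouse 1 in 46 of them. Vehicle day 4 mouse 3, the mouse with the lowest muscle score of its group, was the lowest of the group in 71 members. In LPC day 7, mice 2 and 4 were both above mice 1 and 3 in 56 members. The order of libraries within these groups was thus shared by most members.

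**Figure D1:**
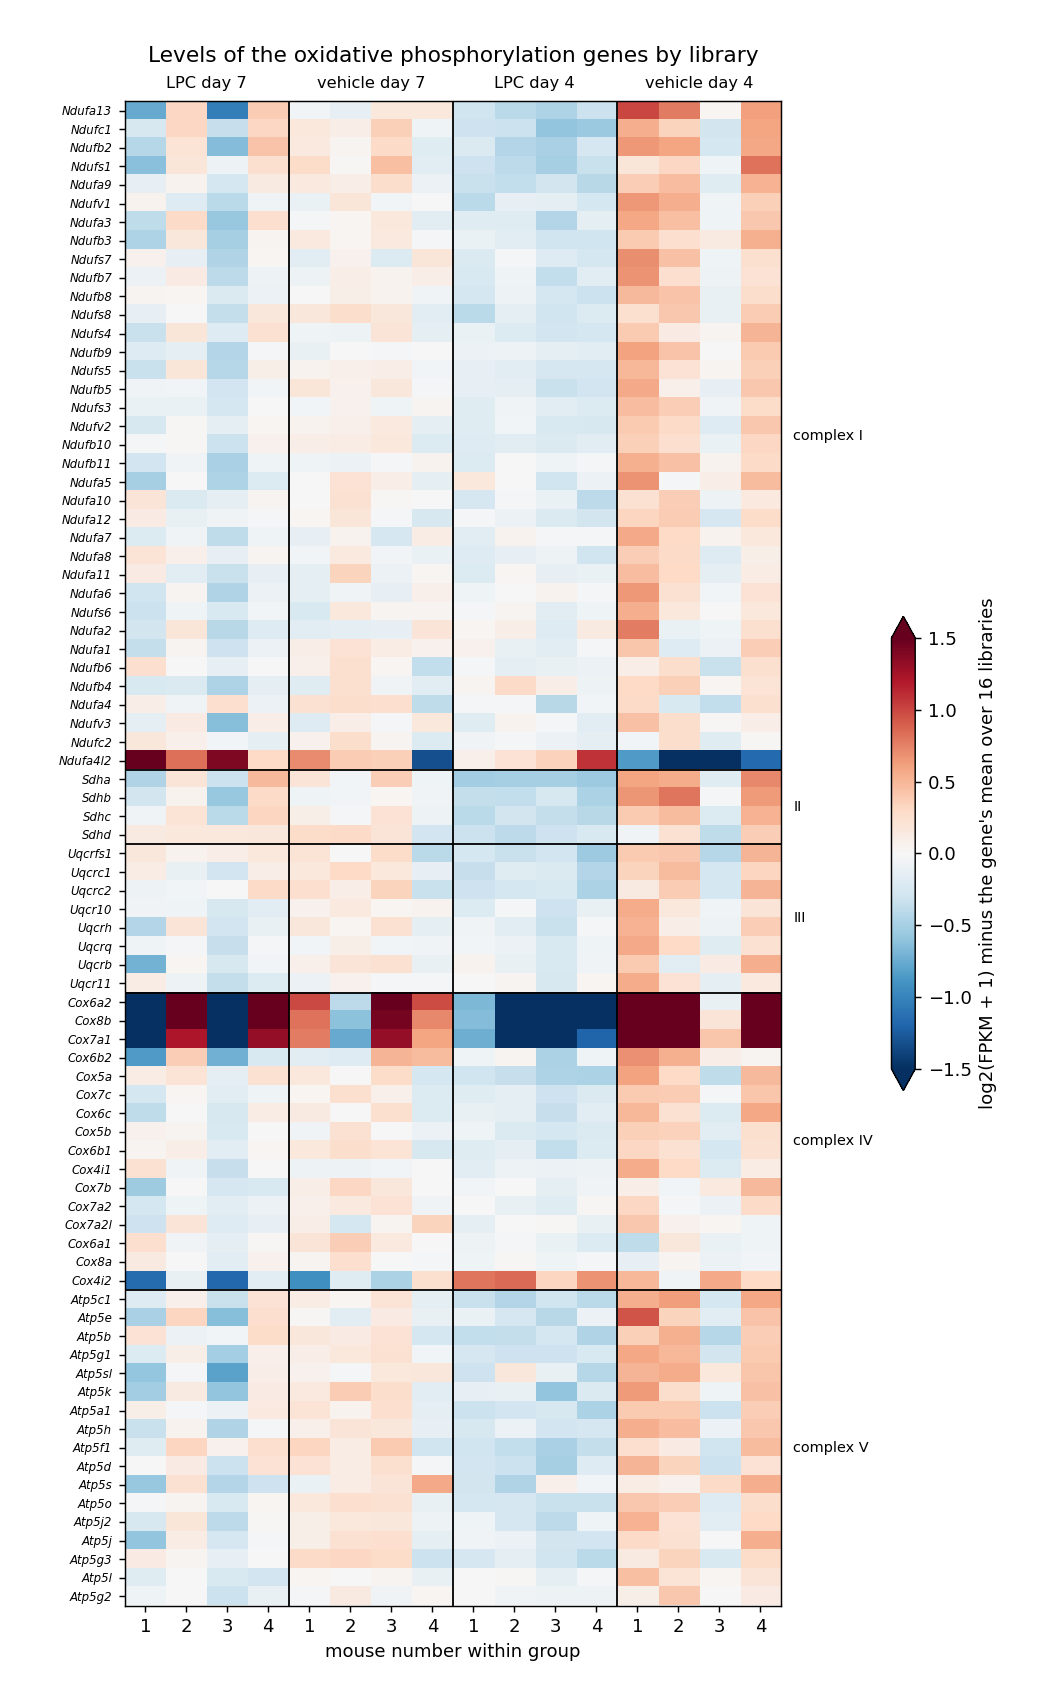
Heat map of 81 of the 82 tested members (rows, ordered by complex and within it by the day 4 fold change) in the 16 libraries (columns, by group and mouse number). Colour gives log2(FPKM + 1) minus the gene's mean over all 16 libraries, cut at 1.5 in either direction. Vehicle day 4 mice 1, 2 and 4 are red in most rows, while mouse 3 of that group is paler. Cox6a2, Cox8b and Cox7a1 differ most between libraries, and mouse 3 is the lowest of vehicle day 4 for them too. Ndufa4l2 and Cox4i2 have their highest library outside vehicle day 4.

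At day 4 the median log2 fold change, LPC over vehicle, was below 0 in each of the 5 complexes, but no single member passed the test by edgeR. Summed over all members, LPC day 4 mice had 13919, 14079, 12941 and 13571 FPKM, against 21904, 19412, 14018 and 19699 FPKM in vehicle day 4 mice. All LPC values but that of mouse 2 lay below every vehicle value, and the lowest vehicle mouse, mouse 3, was level with the LPC mice. The members made up 2.41% ± 0.0712 of all FPKM in LPC day 4 and 3.38% ± 0.513 in vehicle day 4 (SD, n = 4 each).

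By edgeR, 0 of 82 members were called at day 4, where 22 of all genes tested (0.139%) were. At an unadjusted p below 0.05, 53 members were lower with LPC and 1 was higher, while 10.2% of all genes were lower and 9.02% higher by that rule. The log2 fold change was below 0 in 78 of 82 members, against 49.7% of all genes, and its median was -0.46 over the members and 0 over all genes. LPC and vehicle mice did not overlap (on CPM) in 12 members that were lower and in 1 that was higher, and the same held for 8.67% and 7.42% of all genes.

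The number of calls at this day depended on single libraries and on the method. DESeq2 called 24 members (1 higher and 23 lower, with 7% of all genes called), limma-voom with sample weights called 48 (1 higher and 47 lower, 10.7% of all genes), and a fit of the 8 day 4 libraries alone called 9 (1 higher and 8 lower, 8.67% of all genes). Without vehicle day 4 mouse 3 the count was 44, all lower, with 4.3% of all genes called, and without LPC day 7 mouse 3 it was 13 (3.47% of all genes). The 9 members called by DESeq2, by limma-voom with sample weights and by the fit of 8 libraries were Cox6a2, Cox7a1, Cox8b, Ndufa13, Ndufb3, Ndufs1, Sdha and Sdhb, which were lower, and Ndufa4l2, which was higher.

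Complex II, succinate dehydrogenase, which also works in the TCA cycle, had the lowest median of the 5 complexes (-0.79). Its flavoprotein subunit Sdha (chr13:74322255-74350240; positions are from RefSeq on GRCm38.p6) had 42.7, 43.5, 43.6 and 42.1 FPKM in LPC day 4 mice and 93.4, 91.2, 54.5 and 103 FPKM in vehicle day 4 mice. The groups did not overlap, and vehicle mouse 3 was the nearest to the LPC mice. Its log2 fold change was -0.98 ± 0.22 (SE; edgeR adjusted p = 0.058).

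The iron-sulfur subunit Sdhb (chr4:140961271-140979198) had 87.6, 86.5, 94.8 and 80.8 FPKM in LPC day 4 mice, against 178, 196, 110 and 176 FPKM in vehicle day 4 mice. Here too vehicle mouse 3 was the lowest of its group, and the groups did not overlap. Sdhb had the smallest adjusted p of all members at this day, with a log2 fold change of -0.90 ± 0.19 (edgeR adjusted p = 0.057). For the membrane anchors Sdhc and Sdhd the values were -0.68 ± 0.19 (adjusted p = 0.072) and -0.36 ± 0.17 (adjusted p = 0.28).

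In complex I, the entry point for NADH, 36 of 37 members had a log2 fold change below 0 at day 4 (median -0.40), and the exception was Ndufa4l2. The lowest was Ndufa13, an accessory subunit also known as GRIM-19, with 97.5, 90.1, 87 and 95.9 FPKM in LPC day 4 mice and 242, 206, 122 and 185 FPKM in vehicle day 4 mice. These groups did not overlap, and the log2 fold change was -0.98 ± 0.27 (adjusted p = 0.074). Ndufb9, an accessory subunit and after Ndufa4 the most abundant Nduf member, averaged 244 ± 7.17 FPKM with LPC and 343 ± 58.5 FPKM with vehicle at day 4 (SD, n = 4; log2 fold change -0.47 ± 0.14, adjusted p = 0.099).

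All 8 members of complex III, which passes electrons from quinol to cytochrome c, had log2 fold changes below 0, from -0.61 for the Rieske iron-sulfur protein Uqcrfs1 to -0.24 for the small subunit Uqcr11 (median -0.37). Uqcr10, another small subunit, had 249, 284, 232 and 267 FPKM in LPC day 4 mice and 424, 320, 276 and 330 FPKM in vehicle day 4 mice. The groups overlapped through vehicle mouse 3, and the fold change was -0.37 ± 0.14 (adjusted p = 0.18).

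All 17 members of complex V, the ATP synthase, were below 0 as well (median -0.53). The lowest was Atp5c1, the rotating gamma subunit (-0.75 ± 0.19, adjusted p = 0.068). Atp5b had 487, 491, 523 and 462 FPKM in LPC day 4 mice and 810, 910, 468 and 813 FPKM in vehicle day 4 mice, so that vehicle mouse 3 lay among the LPC mice. Its log2 fold change was -0.60 ± 0.22 (adjusted p = 0.16).

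Subunit c, which forms the rotor ring, is made from 3 genes, Atp5g1, Atp5g2 and Atp5g3, that give the same mature protein. Their day 4 fold changes were -0.60 ± 0.19, -0.19 ± 0.12 and -0.39 ± 0.18 in that order, and edgeR called none (adjusted p = 0.11, 0.41 and 0.25), while DESeq2 and limma-voom with sample weights called Atp5g1. Atp5g1 averaged 179 ± 5.6 FPKM with LPC and 274 ± 65.6 FPKM with vehicle, and the more abundant Atp5g3 averaged 420 ± 31.7 FPKM with LPC and 558 ± 91.2 FPKM with vehicle (SD, n = 4). Whether the 3 fold changes differ from each other was not tested. The other symbols of this set include Atp5s and Atp5sl, which are not core subunits of the enzyme (Atp5sl has been described as an assembly factor of complex I).

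**Figure D2:**
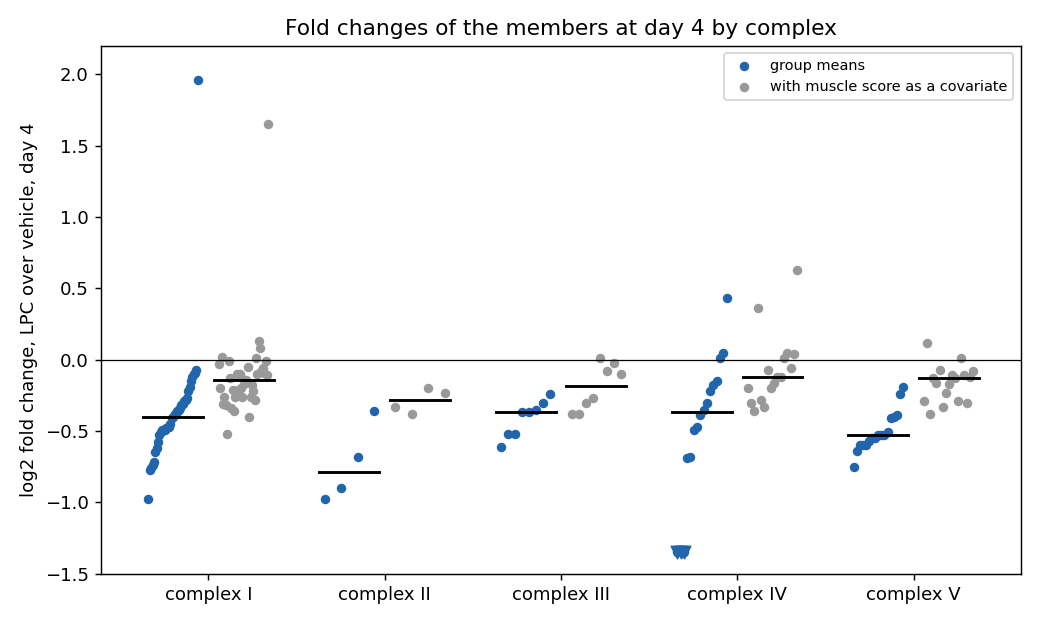
Log2 fold change of each tested member, LPC over vehicle at day 4 (vertical axis), by complex (horizontal axis), from the group means (blue) and with the muscle score as a covariate (grey). Black lines are medians. The 3 blue triangles at the lower edge are Cox6a2, Cox8b and Cox7a1 at -4.36, -4.32 and -4.12, beyond the axis. The grey medians lie nearer 0 than the blue ones in each complex.

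Muscle markers had fold changes of the same sign as the members at day 4. The muscle score was 7.02, 3.52, 4.08 and 5.46 in LPC day 4 mice and 10.52, 10.07, 6.97 and 10.3 in vehicle day 4 mice, and all 20 marker genes were below 0 (median log2 fold change -4.13, none called). White adipocyte markers also did so, with all 8 below 0 (median -2.55, none called, Lep at 0 in at least 1 library). All 6 hair follicle and all 3 endothelial markers were below 0 too (medians -1.34 and -0.62, none called). The same held for 4 of 5 pericyte and vascular smooth muscle markers and 4 of 5 brown adipocyte markers (medians -0.55 and -0.2, none called). For sebocyte and macrophage markers it was 3 of 4 each (medians -0.33 and -0.27, none called). With the muscle score as a covariate, 0 members and 0 genes were called at day 4, the median of the members was -0.15, and 69 of 82 stayed below 0. Without the 3 muscle forms Cox6a2, Cox7a1 and Cox8b, the median of the 79 other members tested was -0.41. Basal keratinocyte markers were above 0 in 5 of 5 genes (median 0.38, none called). So were 4 of 4 fibroblast, 5 of 6 neutrophil and 3 of 4 suprabasal keratinocyte markers (medians 0.47, 0.61 and 0.49, none called). The muscle score moved with the treatment at day 4, so the fit with it cannot tell muscle content and LPC apart. The part of the other cells in these differences was not tested.

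**Figure D3:**
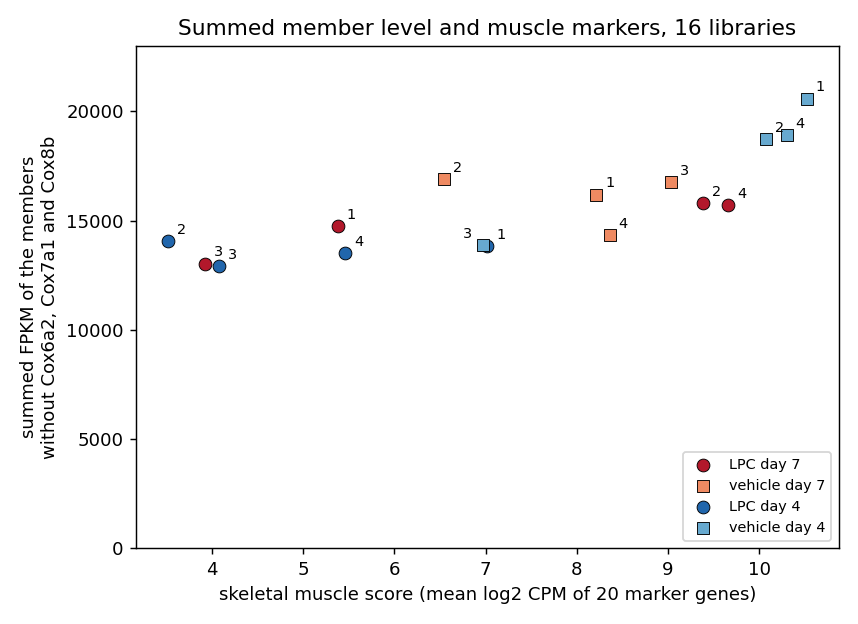
Summed FPKM of the members without Cox6a2, Cox7a1 and Cox8b (vertical axis) against the muscle score (horizontal axis) in the 16 libraries, with mouse numbers. Vehicle day 4 mice 1, 2 and 4 have the highest sums (18741 to 20592 FPKM) and the highest scores, and vehicle day 4 mouse 3 (13880 FPKM) lies among the LPC day 4 mice (12925 to 14067 FPKM).

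Complex IV, cytochrome c oxidase, showed the widest contrast between members, and it ran between paralogs. The muscle form Cox6a2 (chr7:128205435-128206366) had 34.3, 4.07, 6.61 and 15.8 FPKM in LPC day 4 mice, against 581, 287, 51.2 and 343 FPKM in vehicle day 4 mice. Its widely expressed partner Cox6a1 had 501, 522, 493 and 459 FPKM in LPC day 4 mice and 406, 595, 492 and 504 FPKM in vehicle day 4 mice. The Cox6a2 groups did not overlap, while those of Cox6a1 did, with means of 494 FPKM in LPC day 4 and 499 FPKM in vehicle day 4. Log2 fold changes were -4.36 ± 1.14 for Cox6a2 (adjusted p = 0.069) and 0.01 ± 0.15 for Cox6a1 (adjusted p = 0.97).

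The other muscle forms had like values. Cox8b (chr7:140898942-140900446) had 29.5, 4.88, 6.04 and 14 FPKM in LPC day 4 mice and 506, 259, 54 and 276 FPKM in vehicle day 4 mice (log2 fold change -4.32 ± 1.10, adjusted p = 0.067). Its partner Cox8a kept to between 410 and 432 FPKM in LPC day 4 mice and between 393 and 439 FPKM in vehicle day 4 mice (0.05 ± 0.12, adjusted p = 0.85). Cox7a1 (chr7:30184171-30186030) had 14.4, 3.02, 3.44 and 10.2 FPKM with LPC and 226, 124, 33.2 and 161 FPKM with vehicle (-4.12 ± 1.02, adjusted p = 0.066), beside -0.18 ± 0.13 for Cox7a2 (adjusted p = 0.46). By edgeR, none of the 6 genes was called. All 3 muscle forms were called, lower, by DESeq2, by limma-voom with sample weights, by the fit of 8 libraries and by edgeR without vehicle day 4 mouse 3.

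As a share of each pair's FPKM, the muscle form was small in LPC day 4 and large in vehicle day 4. Cox6a2 made up 2.96% ± 2.55 of its pair in LPC day 4 and 35.3% ± 20.5 in vehicle day 4, Cox7a1 4.92% ± 3.15 and 41.6% ± 15.5, and Cox8b 3.13% ± 2.57 and 36.3% ± 18.4 in the same groups (SD, n = 4). At day 7 the Cox6a2 share was 13.6% ± 14.4 with LPC and 15.1% ± 6.67 with vehicle. The summed level of the Cox6a pair was 509 ± 27.3 FPKM in LPC day 4 and 815 ± 191 FPKM in vehicle day 4.

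Within LPC day 7 the muscle forms split the mice. Cox6a2 was 163 and 206 FPKM in mice 2 and 4, against 11.5 and 3.23 FPKM in mice 1 and 3, and those are the pairs of mice with high and low muscle scores. With the muscle score as a covariate, the day 4 log2 fold changes were -0.20 ± 0.25 for Cox6a2, -0.36 ± 0.28 for Cox7a1 and -0.30 ± 0.26 for Cox8b (adjusted p = 0.91, 0.84 and 0.87).

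**Figure D4:**
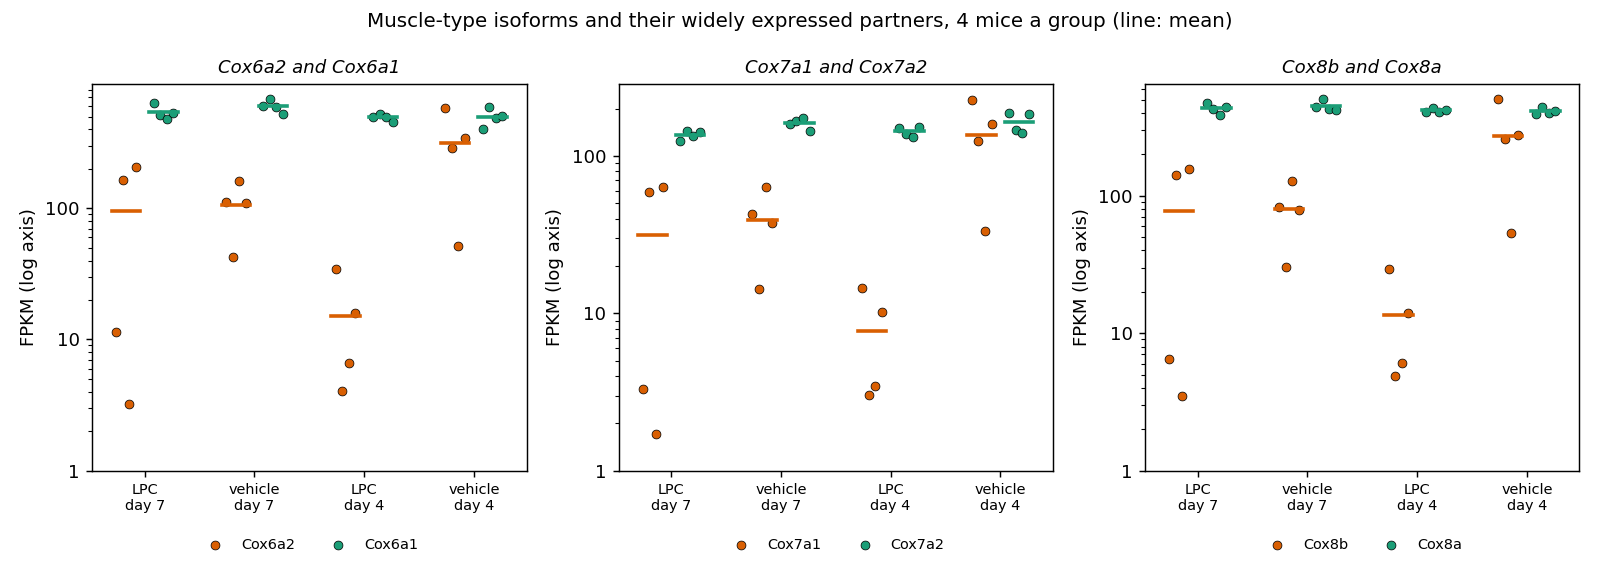
FPKM on a log axis of each muscle form (orange) and its widely expressed partner (green) in the 4 mice of each group, with the mean as a line. The orange points span from 3.23 to 581 FPKM for Cox6a2, while Cox6a1, Cox7a2 and Cox8a stay within 1.68-fold, 1.5-fold and 1.33-fold over all 16 libraries.

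The promoters of 5 of these paralogs (all but Cox6a2) are printed because the paralogs of a pair had day 4 fold changes far apart, with Sdhd added as a member called between days. Each is the stretch of 250 bases before a RefSeq start on GRCm38.p6, read along the gene's strand, and capitals mark searched motifs described further on. The stretch of Cox7a2 lies inside its listed gene span (chr9:79755241-79771422), while the others adjoin the listed gene start.
Cox6a1, chr5:115348959-115349208, minus strand: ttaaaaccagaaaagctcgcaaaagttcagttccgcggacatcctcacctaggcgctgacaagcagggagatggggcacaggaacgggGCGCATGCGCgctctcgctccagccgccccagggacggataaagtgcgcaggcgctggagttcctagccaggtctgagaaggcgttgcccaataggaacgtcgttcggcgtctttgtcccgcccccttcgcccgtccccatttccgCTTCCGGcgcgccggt
Cox7a1, chr7:30183921-30184170, plus strand: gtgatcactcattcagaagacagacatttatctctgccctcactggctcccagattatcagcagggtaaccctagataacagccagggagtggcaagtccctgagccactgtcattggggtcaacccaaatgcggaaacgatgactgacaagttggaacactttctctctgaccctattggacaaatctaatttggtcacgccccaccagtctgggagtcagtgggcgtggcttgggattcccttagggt
Cox7a2, chr9:79759854-79760103, minus strand: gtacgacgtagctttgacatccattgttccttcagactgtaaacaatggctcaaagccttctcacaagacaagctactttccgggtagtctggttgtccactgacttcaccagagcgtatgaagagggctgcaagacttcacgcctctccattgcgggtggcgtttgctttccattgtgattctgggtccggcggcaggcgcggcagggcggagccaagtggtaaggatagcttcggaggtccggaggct
Cox8a, chr19:7217617-7217866, minus strand: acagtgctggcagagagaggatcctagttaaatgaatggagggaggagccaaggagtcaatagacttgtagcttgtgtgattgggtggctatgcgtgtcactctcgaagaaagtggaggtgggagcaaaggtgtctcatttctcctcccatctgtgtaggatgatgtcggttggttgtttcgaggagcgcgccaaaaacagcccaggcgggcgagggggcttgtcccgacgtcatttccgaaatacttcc
Cox8b, chr7:140900447-140900696, minus strand: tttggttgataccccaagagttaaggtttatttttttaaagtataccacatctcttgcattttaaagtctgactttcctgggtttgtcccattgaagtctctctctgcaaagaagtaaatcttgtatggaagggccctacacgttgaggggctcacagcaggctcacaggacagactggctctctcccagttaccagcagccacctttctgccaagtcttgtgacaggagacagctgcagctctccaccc
Sdhd, chr9:50603850-50604099, minus strand: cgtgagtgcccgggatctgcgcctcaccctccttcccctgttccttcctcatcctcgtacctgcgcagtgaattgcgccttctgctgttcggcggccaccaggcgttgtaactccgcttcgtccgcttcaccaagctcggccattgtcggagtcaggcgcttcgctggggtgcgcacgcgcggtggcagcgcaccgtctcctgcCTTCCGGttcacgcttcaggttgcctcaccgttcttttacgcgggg
Cox6a1 carries, from position 89 of the printed stretch, the core of the NRF1 motif and, near the start, CTTCCGG. Sdhd carries CTTCCGG. No searched motif lies in the printed stretch of Cox7a1, Cox7a2, Cox8a or Cox8b, which says only that these letters are not in it. In the longer window described next, Cox8a holds the ETS motif, and Sdhd also holds the estrogen-related receptor motif.

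In windows of 300 bases (250 before and 50 after the start), CG pairs were fewest in Cox8b, with 2, and numbered 7 in Cox7a1. They numbered 32 in Cox6a1, 20 in Cox7a2 and 19 in Cox8a, with a median of 19 over the 69 members that have a window and of 8 over 27025 genes. In the same windows, on either strand, the NRF1 motif core (the first run of capitals in Cox6a1; NRF1 is a known activator of respiratory chain genes) was held by 5 of 69 members (7.25%) and by 1.07% of all genes. The core lengthened by a base was held by 2 members (2.9%) and 0.688% of genes. CCGGAAG (an ETS factor motif, as for GABP; CTTCCGG on the other strand) was held by 16 members (23.2%) and 9.93% of genes. AAGATGGCG (YY1 type) was held by 8 members (11.6%) and 1.64% of genes, and TNAAGGTCA (estrogen-related receptor type) by 3 members (4.35%) and 1.43% of genes. These are matches of letters and no test was made.

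The low-oxygen paralog Ndufa4l2 (chr10:127509274-127517154) had a fold change of opposite sign to most of the set at day 4. It had 70.3, 77.4, 84.7 and 142 FPKM in LPC day 4 mice, against 36.5, 17.4, 13.9 and 29.2 FPKM in vehicle day 4 mice. Every LPC mouse was above every vehicle mouse. The log2 fold change was 1.96 ± 0.47 and missed the threshold (edgeR adjusted p = 0.065). DESeq2, limma-voom with sample weights and the fit of 8 libraries called it.

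At day 7 Ndufa4l2 had 217, 119, 177 and 82.1 FPKM with LPC and 109, 87, 85.7 and 26.1 FPKM with vehicle. These groups overlapped, and the fold change was 1.07 ± 0.45 (adjusted p = 0.20). The LPC effect at day 7 minus that at day 4 was -0.89 ± 0.64 (adjusted p = 0.49). Its partner Ndufa4 averaged 603 ± 75.6 FPKM in LPC day 4 and 656 ± 148 FPKM in vehicle day 4 (SD, n = 4; log2 fold change -0.10 ± 0.20, adjusted p = 0.82). Ndufa4l2 therefore made up 13.4% ± 3.90 of the pair in LPC day 4 and 3.44% ± 0.750 in vehicle day 4, and 17.5% ± 4.98 in LPC day 7 and 9.36% ± 3.16 in vehicle day 7. With the muscle score as a covariate its day 4 fold change was 1.65 ± 0.68 (adjusted p = 0.61).

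Ndufa4l2 is a known target of HIF, and other HIF targets were therefore counted. At day 4, edgeR called 15 of all 15782 genes tested as higher, and 49.7% of all genes had fold changes below 0. Of 20 HIF targets (Ndufa4l2 not among them), 1 was called at day 4, higher, and 18 had fold changes above 0 (median 0.92). The one called was Adm, which encodes the vessel-dilating peptide adrenomedullin, with 34.8, 23.8, 82 and 34.2 FPKM in LPC day 4 mice and 6.33, 6.44, 7.02 and 12.3 FPKM in vehicle day 4 mice (log2 fold change 2.49 ± 0.45, adjusted p = 0.046). At day 7, 4 of the 20 were called, all higher with LPC, where 2.38% of all genes were called as higher: Adm, Ndrg1, P4ha1 and Vegfa, the vascular growth factor (1.75 ± 0.39, adjusted p = 0.028). The median at day 7 was 0.75. The part of HIF in the Ndufa4l2 values was not tested.

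**Figure D5:**
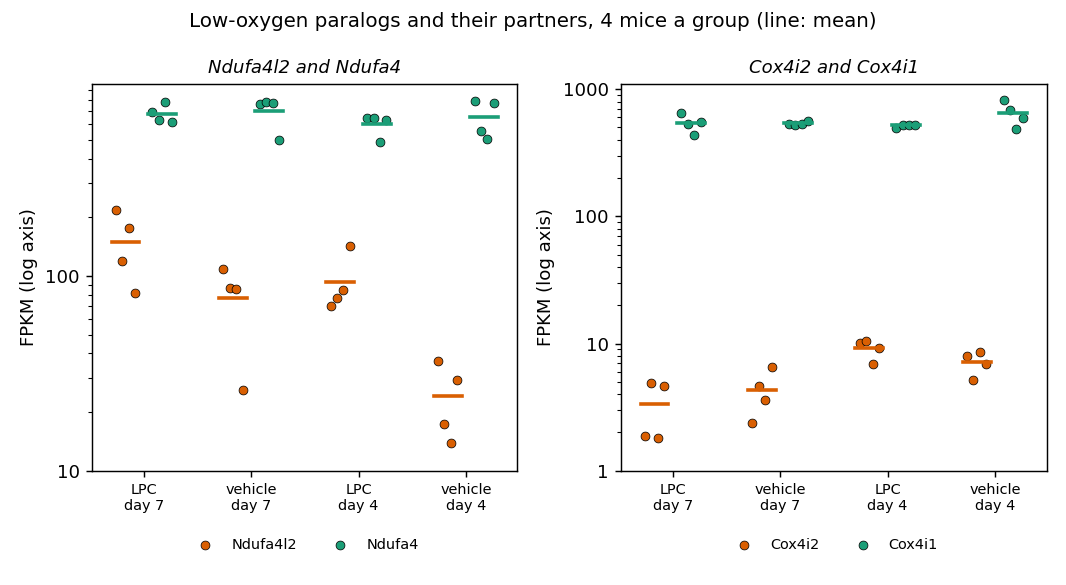
FPKM on a log axis of Ndufa4l2 with Ndufa4 (left) and Cox4i2 with Cox4i1 (right) in the 4 mice of each group, with the mean as a line. Ndufa4l2 lies between 70.3 and 142 FPKM in LPC day 4 and between 13.9 and 36.5 FPKM in vehicle day 4. Cox4i2 lies between 6.96 and 10.5 FPKM in LPC day 4 and between 1.82 and 4.92 FPKM in LPC day 7.

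At day 7 the fold changes of the respiratory chain genes, LPC over vehicle, were centred near 0. By edgeR, 0 of 82 members were called, while 604 of all genes tested (3.83%) were. The median log2 fold change was -0.02 over the members and 0.02 over all genes, with 32 members above 0 and 50 below (47.9% of all genes were below 0). At an unadjusted p below 0.05, 1 member was higher (Ndufa4l2) and 1 was lower, against 11.3% and 8.47% of all genes. On CPM, no member had groups without overlap, against 5.7% of all genes higher and 5.16% lower. DESeq2 (9.18% of all genes called), limma-voom with sample weights (1.13%) and the fit of 8 libraries (0.295%) also called 0 members.

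The member that was lower at an unadjusted p below 0.05 was Cox7b, a small subunit of complex IV, with 86.2, 124, 105 and 106 FPKM in LPC day 7 mice and 134, 155, 141 and 125 FPKM in vehicle day 7 mice (log2 fold change -0.30 ± 0.12, edgeR adjusted p = 0.17). These FPKM values lay side by side without overlap, while the CPM values overlapped. The muscle forms had fold changes of -0.10 ± 0.99 (Cox6a2), -0.27 ± 0.90 (Cox7a1) and -0.02 ± 0.96 (Cox8b), with standard errors near 1, and LPC mice 2 and 4 lay far above LPC mice 1 and 3. Summed over all members, LPC day 7 mice had 14755, 16153, 13045 and 16127 FPKM and vehicle day 7 mice 16431, 16978, 17103 and 14548 FPKM. With the muscle score as a covariate, 0 members and 7.48% of all genes were called at day 7, and the median of the members was 0.02.

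Between the days, LPC skin and vehicle skin were each compared with their own day 4 group. With LPC, 2 members were called as higher and 1 as lower at day 7, while 6.87% of all genes were called as higher and 4.13% as lower (11% in all). The members' share is thus below that of all genes. Of 82 members 69 had fold changes above 0, against 52.7% of all genes, and the median was 0.24 over the members and 0.03 over all genes. At an unadjusted p below 0.05, 23 members were higher and 1 was lower, against 17.9% and 12.9% of all genes. Markers of other cells also had fold changes above 0: all 20 muscle markers did (median 2.84, none called), and 2 of 6 neutrophil (Csf3r, Cxcr2), 2 of 4 macrophage (Cd68, Adgre1) and 3 of 3 endothelial markers rose. Other markers were called as lower at day 7: Krt10 and Lor of 4 suprabasal keratinocyte markers, Awat1 of 4 sebocyte markers, and Elovl3 and Cidea of 5 brown adipocyte markers. The brown adipocyte list was split, with 3 genes below 0 and 2 above, among them Dio2 (1.74 ± 0.56, adjusted p = 0.058). The part of these cells in the members' values was not tested. Day 7 and day 4 did not overlap (on CPM) in 21 members that were higher and 1 that was lower, against 8.85% and 8.22% of all genes.

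Sdhd (chr9:50596340-50603849), a membrane anchor of complex II, rose to 78.5, 79.4, 79.3 and 80 FPKM in LPC day 7 mice, against 57, 54, 57.4 and 60.9 FPKM in LPC day 4 mice. The groups were far apart and each was tight (log2 fold change 0.60 ± 0.18, edgeR adjusted p = 0.042). Atp5f1 (chr3:105942698-105959263), the b subunit in the peripheral stalk of the ATP synthase, rose to 101, 143, 120 and 136 FPKM in LPC day 7 mice, against 92.6, 88.3, 81.3 and 88.8 FPKM in LPC day 4 mice (0.63 ± 0.19, adjusted p = 0.044). In vehicle mice, Sdhd averaged 74.8 FPKM at day 4 and 78.3 FPKM at day 7, and Atp5f1 averaged 128 and 127 FPKM. The LPC day 7 means of Sdhd and Atp5f1 were 79.3 and 125 FPKM. LPC day 4 had the lowest mean of the 4 groups for both genes (57.3 and 87.7 FPKM). Both calls between the days with LPC stood close to the threshold. They were lost with the muscle score as a covariate (adjusted p = 0.099 for Sdhd and 0.12 for Atp5f1), and also with the replicate block, no low-count filter, either FPKM scale or limma-voom with sample weights. DESeq2, median-of-ratios size factors and the fit of 8 libraries called both. Leaving out 1 library at a time, adjusted p ran from 0.02 to 0.12 for Sdhd and from 0.022 to 0.11 for Atp5f1, and the call was lost in 12 and in 10 of the 16 fits.

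Cox4i2 (chr2:152753916-152765039) was the member that fell. It had 1.88, 4.92, 1.82 and 4.66 FPKM in LPC day 7 mice, against 10.1, 10.5, 6.96 and 9.18 FPKM in LPC day 4 mice. The groups did not overlap (log2 fold change -1.13 ± 0.27, adjusted p = 0.020). The fall was called with the muscle score as a covariate (-1.23 ± 0.29, adjusted p = 0.029), and it missed the threshold with limma-voom and sample weights (adjusted p = 0.067) and without LPC day 4 mouse 2 (adjusted p = 0.056).

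In vehicle skin Cox4i2 had 2.38, 4.62, 3.58 and 6.53 FPKM at day 7 and 8.04, 5.17, 8.51 and 6.88 FPKM at day 4 (log2 fold change -0.70 ± 0.26, adjusted p = 0.29). The general form Cox4i1 had a fold change of 0.20 ± 0.19 between the days with LPC (adjusted p = 0.48). Cox4i2 made up 0.613% ± 0.307 of the pair in LPC day 7 and 1.74% ± 0.309 in LPC day 4. Of the 5 markers of pericytes and vascular smooth muscle, cells in which Cox4i2 is known, all were above 0 FPKM in every library and had fold changes above 0 between the days with LPC (median 1.06, none called). Their score, the mean log2 CPM, was 3.07, 5.65, 3.26 and 5.86 in LPC day 7 mice and 4, 4.17, 4.39 and 3.55 in LPC day 4 mice. LPC day 7 mice 1 and 3, which had the lowest Cox4i2 values, thus lay below all LPC day 4 mice in this score, and mice 2 and 4 above them. The part of these cells in the Cox4i2 values was not tested.

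In vehicle skin, 0 members were called between day 7 and day 4, and 0 of all genes (0%) were. At an unadjusted p below 0.05, 1 member was higher at day 7 and 7 were lower, against 7.32% and 5.67% of all genes. On CPM, no member had days without overlap, against 3.45% of all genes higher and 2.76% lower. DESeq2 called 1 member, Ndufa4l2, as higher (1.51% of all genes called), and limma-voom with sample weights called 11 (15.8% of all genes). The median was -0.18, with 69 of 82 members and 49.6% of all genes below 0. The smallest p belonged to Ndufa4l2 (log2 fold change 1.71 ± 0.46, adjusted p = 0.21), with 109, 87, 85.7 and 26.1 FPKM at day 7 and 36.5, 17.4, 13.9 and 29.2 FPKM at day 4; without vehicle day 7 mouse 4 it was called (adjusted p = 0.036). The 2 day comparisons and the 2 LPC comparisons share their groups, so their values are not independent.

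The LPC effect at day 7 minus that at day 4 was also tested directly, and edgeR called 0 members and 0 of all genes (0%). Its median was 0.40 over the members, against 0 over all genes, and 76 of 82 were above 0, against 50.1% of all genes. At an unadjusted p below 0.05, 25 members were above 0 and none below, against 10.8% and 6.15% of all genes. Sdhb had the smallest p of the members (0.94 ± 0.27, adjusted p = 0.17), and DESeq2 called it. Without vehicle day 4 mouse 3, 8 members were called (1.35% of all genes), all above 0. With the muscle score as a covariate the median was 0.17.

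Other mitochondrial genes were counted by the same test. Of 18 genes of the TCA cycle, which feeds the chain, 0 were called at day 4 and 17 had fold changes below 0 (median -0.60). Idh2, the mitochondrial isocitrate dehydrogenase, had 25.8, 28.5, 23.9 and 23.4 FPKM in LPC day 4 mice and 119, 95.7, 36.6 and 77.4 FPKM in vehicle day 4 mice (-1.69 ± 0.34, adjusted p = 0.056). Of 15 genes of fatty acid oxidation, 14 were below 0 (median -0.66, none called). They include Cpt1b, the muscle form of the enzyme that brings fatty acids into mitochondria (-3.06 ± 0.69, adjusted p = 0.058). Of 19 tested carriers and uncoupling proteins 16 were below 0 (median -0.61, none called), with Slc25a4, the muscle-type ADP/ATP carrier, at -2.22 ± 0.47 (adjusted p = 0.056).

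Genes that build the complexes or the mitochondrial ribosome lay closer to 0 at day 4. The median was -0.17 over 44 assembly factors, -0.08 over 77 mitochondrial ribosomal proteins and -0.08 over 17 regulators of mitochondrial biogenesis, with none called. Of the regulators 6 were above 0 and 11 below, and some lay far from the median. Esrrb was at -5.9 ± 1.3 (adjusted p = 0.058) and Esrrg at -3.56 ± 0.91 (adjusted p = 0.067). At day 7, 1 of the 44 assembly factors was called, where 1.44% of all genes were called as lower: Acad9, needed to build complex I, fell with LPC (-0.78 ± 0.13, adjusted p = 0.012), with 23.5, 31.1, 27.7 and 28.1 FPKM in LPC day 7 mice and 47.3, 48.3, 55.8 and 51.9 FPKM in vehicle day 7 mice. The groups did not overlap. All 4 suprabasal keratinocyte markers, such as Krt10 and Lor, also fell at day 7 (median -2.25), and their part in the values of Acad9 was not tested. Of the 17 regulators 1 was called, Perm1, known from muscle, which fell too (-1.18 ± 0.23, adjusted p = 0.019). Of the 77 ribosomal protein genes 1 was called, Mrps6, which rose (0.63 ± 0.14, adjusted p = 0.027). By the same rule 2.38% of all genes were called as higher. Between the days with LPC, 6 of 44 assembly factors rose, among them Coa5 (0.54 ± 0.12, adjusted p = 0.014) and Sdhaf2 (0.55 ± 0.14, adjusted p = 0.025), beside 6.87% of all genes. Of the 17 regulators 2 rose, Esrrb (4.45 ± 1.33, adjusted p = 0.044) and Esrra (0.39 ± 0.12, adjusted p = 0.047).

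Glycolysis, the other route to ATP, had fold changes of both signs at day 4: 17 of 26 genes were above 0 (median 0.41, none called). The other 9 were below 0, against 49.7% of all genes. The glucose transporter gene Slc2a1 was at 2.16 ± 0.47 (adjusted p = 0.057). Pfkm was at -3.32 ± 0.81 (adjusted p = 0.066) and Eno3 at -3.67 ± 1.03 (adjusted p = 0.078). At day 7, 3 of 26 were called as higher with LPC, against 2.38% of all genes (median 0.56): the glucose transporter gene Slc2a3, Pfkfb3, an activator of the pathway (1.69 ± 0.30, adjusted p = 0.013), and Hk3, a hexokinase of blood cells (1.66 ± 0.38, adjusted p = 0.030). Neutrophil markers had fold changes above 0 at day 7 in 6 of 6 genes (median 1.74), and Ly6g and Mmp9 were called. Their part in the glycolysis values was not tested.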

How the data were processed

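The authors sequenced RNA of skin lesions on a BGISEQ-500, aligned reads to mouse build GRCm38 with Bowtie2 and quantified genes with RSEM, per the labels' protocols. The deposited files give each gene an expected count, which RSEM estimates by dividing reads among matching genes, and an FPKM value made by the authors. Values of genes with near-identical copies, such as processed pseudogenes of these subunits, are therefore less certain, and the strand setting of the counting was not given in the sources. Genes that a file does not list were set to 0 in that library. Groups and mouse numbers came from the sample titles, and each group holds 4 separate mice.

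Expected counts were rounded, and genes were kept by filterByExpr, which left 15782 and removed 3657. edgeR 4.0.16 (R 4.3.3) fitted group means to all 16 libraries by quasi-likelihood (12 residual degrees of freedom, common dispersion 0.122, TMM factors 0.836 to 1.107), with Benjamini-Hochberg adjustment over all genes tested. CPM values use the TMM-scaled totals, with a prior count of 2 on the log2 scale, and non-overlap was judged on them. The test was checked on simulated data. Alternatives were no low-count filter, median-of-ratios size factors, DESeq2 1.42.0, limma 3.58.1 on log2(FPKM + 1) and log2(FPKM + 0.1), limma-voom with sample weights, the 8 libraries compared alone, a replicate block, the muscle score as a covariate, and each library left out in turn.

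Values are given per mouse for the 2 most abundant members of each complex, the isoform sets, the members with the smallest p and those with the largest changes. The values of 1 complex I member are not reported here. A few others are named with their values: some members called by an alternative, and Uqcrfs1, Atp5c1 and Ndufa13 as the lowest of their complex, were chosen after values were seen. The members, marker lists and pathway lists were chosen with earlier results of these data known. Promoter sequences are from RefSeq on GRCm38.p6, where 69 of 83 members had a window.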

Additional observations from a re-analysis of the deposited data

Results flagged for a closer look

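Among 30 members looked at in 4 groups (120 groups of 4 mice), 6 groups held a mouse flagged as low by Dixon's test. That test flags about 1 group in 20 by chance, and 6 of 120 groups is no more than that rate. In LPC day 4, mouse 3 was lowest for Ndufa4 (490 FPKM, next 633 FPKM) and for Uqcr11 (311 FPKM, next 368 FPKM), and mouse 1 was lowest for Cox4i1 (499 FPKM, next 522 FPKM). In vehicle day 7, mouse 4 was lowest for Ndufa4 (499 FPKM, next 763 FPKM) and for Atp5g3 (405 FPKM, next 612 FPKM). In vehicle day 4, mouse 3 was lowest for Cox6b1 (396 FPKM, next 556 FPKM).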

How the results depend on the processing

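The count of members called moved most for LPC against vehicle at day 4, from 0 to 24 with DESeq2, 48 with limma-voom and sample weights and 9 with the 8 libraries alone. Leaving out 1 library gave 0 to 44, with 44 without vehicle day 4 mouse 3 and 13, 7, 4 and 1 without LPC day 7 mouse 3, 1, 4 and 2. For day 7 against day 4 with LPC, the 3 calls (11% of all genes called) became 10 with DESeq2 (19.5%), 6 with the 8 libraries alone (7.24%), 0 with limma-voom (5.06%), and 1 with no low-count filter, either FPKM scale, the replicate block or the muscle covariate (5.33% to 10.3%; 0 to 12 leaving out 1 library: 12 without vehicle day 4 mouse 3 (12.6%), 8 without LPC day 7 mouse 3 (13.9%), 0 without LPC day 4 mouse 2). With vehicle, DESeq2 called 1 member (1.51% of all genes), limma-voom 11 (15.8%), and leaving out 1 library 0 to 1. For the difference between days DESeq2 called 1 member (3.71% of all genes), and leaving out 1 library 0 to 8, with 8 without vehicle day 4 mouse 3. LPC against vehicle at day 7 gave 0 members under every alternative run.

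The median log2 fold change of the members at day 4 kept its sign under every alternative (-0.58 to -0.35 leaving out 1 library) and moved to -0.15 with the muscle covariate, against an SD of 0.23 between libraries of a group. Cox8b at day 7 with LPC against vehicle changed sign to 0.01 with median-of-ratios size factors, DESeq2 and the 8 libraries alone. Leaving out 1 library, its range was -0.64 to 0.38, that of Cox6a2 -0.82 to 0.30 and that of Cox7a1 -0.87 to 0.12. With the muscle covariate, signs also changed for day 7 against day 4 with LPC (Cox6a2 -0.18, Cox7a1 -0.63, Cox8b -0.35), with vehicle (Cox6a2 0.09) and for the difference between days (Cox8b -0.10). The causes were not tested. On log2(FPKM + 0.1) the median of all genes was -0.12 for LPC against vehicle at day 7 and for day 7 against day 4 with LPC.

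Same-numbered mice did not deviate together throughout: correlations were 0.099 to 0.54 for LPC against vehicle at day 4 and -0.6 to 0.15 in the other 3 comparisons (11 of 16 at or under 0.1), so the replicate block, which left 1 call between days with LPC and 0 in the other comparisons, rests on numbers alone.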

Other observations

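None of the members below passed the test in any of the comparisons by edgeR on all 16 libraries. DESeq2 called Cox5a at day 4 and between the days with LPC, and limma-voom with sample weights called it at day 4. Between the days with LPC, edgeR called Cox5a on the 8 libraries alone and in 3 of 16 fits leaving out 1 library. Without vehicle day 4 mouse 3, edgeR also called it at day 4 and for the difference between days. Cox7a2l, counted with complex IV by its symbol, averaged 123 ± 6.36 FPKM in LPC day 4 and 139 ± 20.8 FPKM in vehicle day 4 (SD, n = 4; log2 fold change -0.15 ± 0.14, edgeR adjusted p = 0.58). Cox6b1, the general form of a subunit facing cytochrome c, averaged 406 ± 27.4 FPKM in LPC day 4 and 525 ± 86.9 FPKM in vehicle day 4 (-0.35 ± 0.16, adjusted p = 0.26). Its testis-type paralog Cox6b2 had 1.88, 2.08, 1.16 and 1.88 FPKM in LPC day 4 mice and 3.85, 3.36, 2.23 and 2.1 FPKM in vehicle day 4 mice (-0.69 ± 0.42, adjusted p = 0.38). It was the member with the lowest fold change at day 7 (-0.58 ± 0.42, adjusted p = 0.49).

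Atp5s and Atp5sl had lower means with LPC at both days, without a call by edgeR, while limma-voom with sample weights called Atp5sl at day 4. Atp5sl averaged 9.45 ± 3.07 FPKM in LPC day 7 and 12.5 ± 0.846 FPKM in vehicle day 7 (-0.35 ± 0.19, adjusted p = 0.35), and 10.4 ± 2.16 FPKM in LPC day 4 and 15.9 ± 2.04 FPKM in vehicle day 4 (-0.60 ± 0.19, adjusted p = 0.11). Atp5s averaged 2.48 ± 0.919 FPKM in LPC day 7 and 3.75 ± 0.955 FPKM in vehicle day 7 (-0.54 ± 0.25, adjusted p = 0.26). Cox5a, a complex IV subunit of all tissues, missed the threshold between days with LPC, with 196, 208, 164 and 212 FPKM at day 7 and 147, 142, 131 and 130 FPKM at day 4 (0.63 ± 0.21, adjusted p = 0.061), although the groups did not overlap.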
